A study of Mus musculus with 7 samples.

Results

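Described here are 50 mouse genes of mitosis, taken from a list of members and found on the array by exact gene name among the non-control probes. They were sorted by role into 9 kinases, cyclins and their phosphatase, 9 kinesins, 10 kinetochore proteins, 5 spindle checkpoint proteins, 7 proteins of cytokinesis and the chromosomal passenger complex, and 10 others (spindle assembly, anaphase, chromosome structure and transcription factors). All 50 were on the array, with 73 probes among them, out of 23888 named genes. Of the 50, 49 could be tested, because the only probe of the kinetochore protein Cenpf was well above background on 0 of the 7 arrays, and 14784 genes were tested in all. Of the 49, 48 were well above background on all 7 arrays, and 48 had a value on all 7.

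The study compared the transcriptomes of CD8 T cells with and without the kinase Lck, the Src family kinase that starts signalling from an engaged T cell receptor. There were 3 Lck-/- and 4 WT arrays, each of RNA from 1 sample that the series calls a biological replicate, hybridised in 1 colour. All mice were OT-1het and Rag-/- in the labels, that is, their lymph node T cells carry the OT-1 transgenic receptor for SIINFEKL, a peptide of ovalbumin, and rearrange no receptor of their own. The Lck-/- cells, lacking endogenous Lck, came from mice with a knocked-in Lck under doxycycline, which had been out of the diet for 7 days; neither an inducible Lck nor a diet is given for WT. Lymphocytes of both groups were stimulated in culture with 100 nM SIINFEKL for 24 h, and the labels name no later purification of CD8 T cells. Neither the promoter that drives the inducible Lck nor the age or sex of the mice is given in the sources used here.

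Mitosis is driven by Cdk1 bound to cyclin B, with the polo and Aurora kinases acting beside it. Kinesins build the bipolar spindle and move chromosomes on it, kinetochores join each chromosome to spindle microtubules, and the spindle checkpoint holds back the anaphase-promoting complex until every kinetochore is attached. Transcripts of these proteins accumulate in G2 and M phase, and in naive T cells, which do not divide, they appear as antigen drives the cells into cycle. Neither the share of cells in mitosis nor the amount of message per cell can be read from bulk RNA, so fewer dividing cells and less message per cell cannot be told apart in what follows.

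Values are log2 of the processed spot signal minus the 75th percentile of that array, so 0 is that percentile and a step of 1 is a doubling of signal. Values of a group are given in the order of the replicate numbers, and differences are Lck-/- minus WT. On the only Lck probe the arrays labelled Lck-/- read 8.02, 6.21 and 6.17 and the arrays labelled WT read 7.44, 7.67, 7.36 and 6.04, and the difference of means was -0.32 (SE 0.55, limma adjusted p = 0.961). The array labelled Lck-/- 1 had the highest Lck signal and the array labelled WT 4 the lowest, against both labels, so every group below is a group of arrays as labelled. The 7 values fall into separate levels, 6.04 to 6.21 on Lck-/- 2, Lck-/- 3 and WT 4 and 7.36 to 8.02 on the other 4 arrays. Whether the labels of Lck-/- 1 and WT 4 were exchanged was not tested. Where this probe lies relative to the deleted stretch of Lck is not known here. Between 46.57% and 61.06% of spots on an array were well above background, and 9 of 9 T cell markers were so on all 7 arrays. Of 59305 non-control spots, those marked as non-uniform outliers numbered 422, 1 and 144 on the arrays labelled Lck-/-. On those labelled WT they numbered 31, 5, 1403 and 3, so WT 3 had the most.

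All 49 tested mitosis genes had a lower mean on the arrays labelled Lck-/- than on those labelled WT, against 42.5% of all genes tested. The median difference was -0.88 on the log2 scale (quartiles -1.12 and -0.64), a 1.84-fold lower signal, where the median of all genes tested was 0.04. Differences ran from -1.88 for the spindle protein Nusap1 to -0.05 for Pttg1, the securin that holds separase inactive. Of the 49, 18 were lower by 1 or more, against 1.00% of all genes. After Benjamini-Hochberg adjustment over all genes in limma, 0 of the 49 passed 0.05, and 0 of the 14784 (0%) did. Without adjustment, 25 of the 49 were lower at a limma p under 0.05, against 2.19% of all genes tested, and 0 were higher; 7.11% of all genes had such a p in either direction. Groups did not overlap for 6 of the 49, Ccnb1, Aurka, Kif4, Spc25, Ect2 and Top2a, all lower on the arrays labelled Lck-/-, against 2.14% of all genes, and for 0 in the other direction, against 5.07%.

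**Figure D1:**
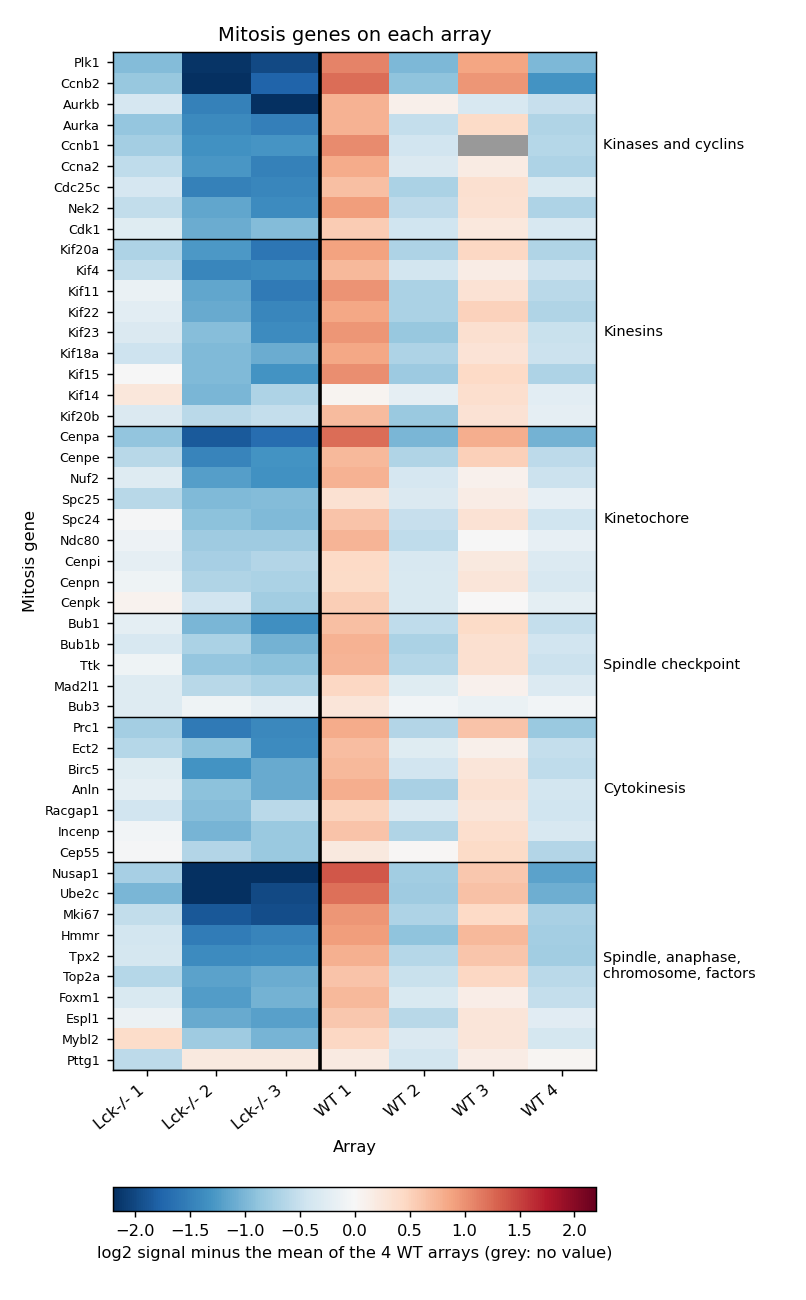
Log2 signal of each tested mitosis gene (down the page, by role and by size of difference) on each array (across, the 3 arrays labelled Lck-/- left of the 4 labelled WT), as the difference from that gene's mean over the WT arrays; blue is lower, red higher and grey a missing value. The arrays labelled Lck-/- 2 and Lck-/- 3 are blue for nearly every gene, WT 1 and WT 3 are red, and Lck-/- 1, WT 2 and WT 4 are a paler blue and look alike.

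Array by array, the mitosis genes varied together and the groups overlapped. Averaged over the 48 members with a value on every array and set against the WT mean of each gene, the level was -0.37, -1.15 and -1.20 on the arrays labelled Lck-/-, against 0.72, -0.53, 0.34 and -0.53 on those labelled WT. The array labelled Lck-/- 1 therefore stood above the arrays labelled WT 2 and WT 4. It was the higher of the 2 for 33 of 48 genes against WT 2 and for 37 of 48 against WT 4, with median gaps of 0.15 and 0.14. The arrays labelled Lck-/- 2 and Lck-/- 3 were below every WT array in this average, and between them they held the lowest value of 45 of the 48 genes (20 and 25). The array labelled WT 1 held the highest value of 45 genes. It exceeded WT 2 for 48 of 48 genes, by a median of 1.29, which is more than the median difference of 0.88 by which the group labelled Lck-/- was lower than WT.

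**Figure D2:**
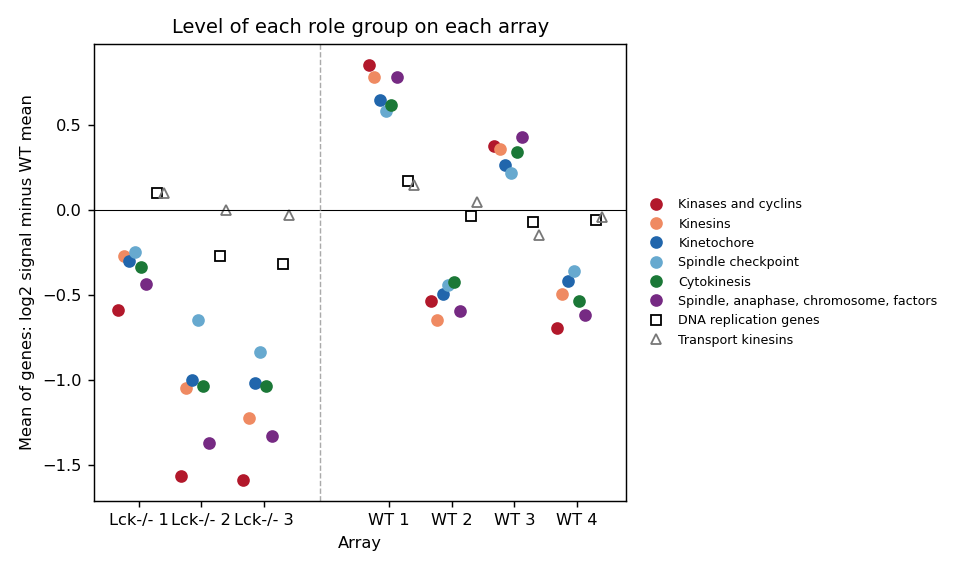
Mean over each role group (coloured circles), the DNA replication genes (squares) and the transport kinesins (triangles) of log2 signal minus the WT mean of each gene, for each array, with Lck-/- arrays on the left and WT arrays on the right. Kinases and cyclins spread most, from -1.59 on the array labelled Lck-/- 3 to 0.85 on WT 1, while the replication genes stay between -0.32 and 0.17.

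The 6 role groups ranked the arrays alike at the extremes and differed in width. Every role group was highest on the array labelled WT 1 and next highest on WT 3, and every role group was lowest on Lck-/- 2 or Lck-/- 3. Kinases and cyclins spanned -0.59, -1.56 and -1.59 on the arrays labelled Lck-/-, against 0.85, -0.54, 0.38 and -0.69 on those labelled WT. Spindle checkpoint genes spanned the least, -0.25, -0.65 and -0.84 on the arrays labelled Lck-/-, against 0.58, -0.44, 0.22 and -0.36 on those labelled WT. No test of one role group against another was made, since the genes of a group share the same 7 arrays.

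Markers of T cells and of other cell types also varied over these arrays. Of the T cell markers 8 of 9 differed upward (median 0.21), and 1, Thy1 (0.58), was higher at an unadjusted limma p under 0.05. All 14 tested natural killer (NK) markers differed upward, by a median of 1.06, where 57.5% of all genes did. At an unadjusted limma p under 0.05, 2 of the 14 were higher, against 4.92% of all genes. These were Eomes (1.93) and Il2rb (0.41), which activated CD8 T cells also express, and 0 of the 7 defining NK markers were. Averaged over those 7 and set against the WT mean of each marker, the level was 0.46, 2.17 and 0.61 on the arrays labelled Lck-/-, against -0.68, 0.00, -1.05 and 1.73 on those labelled WT. WT 1 and WT 3, highest in the mitosis genes, were lowest in NK markers, and Lck-/- 2, next to lowest in the mitosis genes, was highest. Other arrays did not follow this order. Lck-/- 3, lowest in the mitosis genes, was at 0.61 in NK markers. WT 2 and WT 4, both at -0.53 in the mitosis genes, were at 0.00 and 1.73 in NK markers. None of the 7 was undetected throughout, with 3 of them (Klra4, Klra8 and Tyrobp) well above background on all 7 arrays and the other 4 on 5 or 6. Of the tested myeloid markers 8 of 9 differed upward (median 0.39), of the B cell markers 5 of 5 (median 0.51), of the stromal markers 3 of 3 (median 0.40) and of the erythroid markers 3 of 4 (median 0.13), and 2, 0, 1 and 0 of them were higher at an unadjusted limma p under 0.05. The averaged myeloid level was 0.14 to 0.80 on the arrays labelled Lck-/-, against -0.43 to 0.49 on those labelled WT. For B cell markers it was 0.28 to 0.52 on Lck-/- arrays and -0.35 to 0.25 on WT arrays, and for stromal markers 0.21 to 0.67 on Lck-/- arrays and -0.19 to 0.31 on WT arrays. For erythroid markers it was -0.89, 0.30 and -0.21 on Lck-/- arrays and -1.24, 0.87, -1.13 and 1.50 on WT arrays. WT 1 and WT 3, highest in the mitosis genes, were thus lowest in erythroid markers. The erythroid marker that differed downward was the globin gene Hbb-bt (-1.66, SE 1.00). Of the 4 tested, 2 were well above background on all 7 arrays. The part of NK, myeloid, B, stromal and erythroid cells in the mitosis result was not tested.

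Kinases and cyclins, with their activating phosphatase, had the lowest median difference of the role groups. All 9 differences were negative, their median was -1.13 (2.19-fold lower), 9 of 9 were lower at an unadjusted limma p under 0.05, and 8 were lower by 1 or more. Plk1, the polo kinase of mitotic entry and centrosome maturation, read 3.60, 2.40 and 2.57 on the arrays labelled Lck-/-, against 5.65, 3.57, 5.42 and 3.57 on those labelled WT, a difference of -1.69 (SE 0.60, limma adjusted p = 0.655). Groups overlapped because the array labelled Lck-/- 1 lay just above WT 2 and WT 4, while WT 1 and WT 3 were far above the rest. Ccna2, the cyclin A that partners cyclin-dependent kinases from S phase into early mitosis, read 3.35, 2.62 and 2.42 on Lck-/- arrays and 4.71, 3.59, 4.09 and 3.22 on WT arrays, a difference of -1.11 (SE 0.38, limma adjusted p = 0.633). Among WT arrays only WT 4 was below Lck-/- 1. Aurka, the Aurora kinase of the spindle poles, read 2.67, 2.12 and 2.02 on the arrays labelled Lck-/-, against 4.29, 2.99, 3.93 and 2.85 on those labelled WT, a difference of -1.25 (SE 0.38, limma adjusted p = 0.61). All 3 Aurka values of the arrays labelled Lck-/- were below all 4 of WT.

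Cyclin B1, the main partner of Cdk1 (gene Ccnb1), read 2.37, 1.78 and 1.81 on the arrays labelled Lck-/-, against 4.16, 2.70 and 2.50 on the arrays labelled WT 1, WT 2 and WT 4. WT 3 had no value, since the spot was marked as an outlier there, and the fit used the other 6 arrays, a difference of -1.13 (SE 0.44, limma adjusted p = 0.692). Ccnb1 had 2 other probes, which differed by -1.18 and -1.31 and had values on all 7 arrays. On the first of these groups overlapped, with Lck-/- 1 (0.29) above WT 2 (0.16) and WT 4 (0.23). On the second they did not overlap. Ccnb2, the cyclin B of the Golgi, differed by -1.69 (SE 0.69) and Cdk1 itself by -0.77 (SE 0.31), the smallest difference of the 9. Aurkb, the Aurora kinase of the chromosomal passenger complex, differed by -1.35 (SE 0.46), Nek2, which separates centrosomes, by -1.02 (SE 0.41), and Cdc25c, the phosphatase that switches Cdk1 on, by -1.09 (SE 0.40). Aurkb was dim, well above background on 6 of the 7 arrays, and its difference was -0.56 with normexp background correction and -0.58 in the deposited value table.

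Kinesins of the spindle and midzone were lower in 9 of 9 cases, with a median of -0.88, and 2 of the 9 were lower at an unadjusted limma p under 0.05. Kif22, a chromokinesin that pushes chromosome arms, read 4.07, 3.19 and 2.87 on Lck-/- arrays and 5.17, 3.61, 4.82 and 3.64 on WT arrays, a difference of -0.93 (SE 0.46, limma adjusted p = 0.746). Kif20a, a motor of the central spindle, read 2.24, 1.65 and 1.32 on the arrays labelled Lck-/-, against 3.79, 2.23, 3.36 and 2.26 on those labelled WT, a difference of -1.17 (SE 0.43, limma adjusted p = 0.659). For Kif22 the array labelled Lck-/- 1 was above WT 2 and WT 4, and for Kif20a it was level with them. Kif20b, a motor of the midbody, read 2.17, 1.90 and 1.96 on Lck-/- arrays and 3.18, 1.67, 2.81 and 2.29 on WT arrays, a difference of -0.48 (SE 0.33, limma adjusted p = 0.83). WT 2 held the lowest Kif20b value of all 7 arrays.

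Among the other kinesins, groups parted in Kif4, the chromokinesin that also works with Prc1 at the midzone, 0.42, -0.48 and -0.44 on Lck-/- arrays and 1.68, 0.55, 1.13 and 0.48 on WT arrays, a difference of -1.12 (SE 0.35, limma adjusted p = 0.617). Kif11, the motor that pushes spindle poles apart, differed by -0.94 (SE 0.48), and Kif15, which can stand in for it, by -0.77 (SE 0.50). Kif23, the motor of centralspindlin, differed by -0.88 (SE 0.45), and Kif18a, which damps chromosome movement at the metaphase plate, by -0.84 (SE 0.37). Kif14, which acts at the midbody, differed by -0.48 (SE 0.31) on its 1 detected probe; its other probe was well above background on 0 of 7 arrays. With normexp background correction the Kif14 difference was -0.23, and in the deposited value table -0.27. For Kif14 the array labelled Lck-/- 1 was second only to WT 3.

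Kinetochore genes had a median difference of -0.64 over the 9 tested of 10, all negative, and 4 of the 9 were lower at an unadjusted limma p under 0.05. Spc25, a subunit of the Ndc80 complex that grips microtubules, read 3.41, 3.06 and 3.07 on the arrays labelled Lck-/-, against 4.35, 3.71, 4.18 and 3.84 on those labelled WT, a difference of -0.84 (SE 0.20, limma adjusted p = 0.592). Groups did not overlap, and its unadjusted p of 0.00279 was the lowest of the 49 members. Cenpk, of the inner kinetochore network on centromeric chromatin, read 3.67, 3.18 and 2.83 on Lck-/- arrays and 4.13, 3.26, 3.60 and 3.38 on WT arrays, a difference of -0.37 (SE 0.27, limma adjusted p = 0.844). Here the array labelled Lck-/- 1 exceeded all WT arrays but WT 1. Cenpe, a kinesin motor of the kinetochore that carries chromosomes to the metaphase plate, read 2.89, 2.05 and 2.18 on the arrays labelled Lck-/-, against 4.21, 2.83, 4.02 and 2.92 on those labelled WT, a difference of -1.12 (SE 0.40, limma adjusted p = 0.655). For Cenpe, Lck-/- 1 lay between WT 2 and WT 4.

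Cenpa, the histone H3 variant that marks the centromere, had the widest kinetochore difference, -1.46 (SE 0.61). The other Ndc80 complex subunits differed by -0.94 (Nuf2, SE 0.37), -0.64 (Spc24, SE 0.35) and -0.56 (Ndc80, SE 0.32). Cenpi and Cenpn, of the inner network, differed by -0.52 and -0.48. On the array labelled Lck-/- 1 both Cenpi and Cenpn were above WT 2 and WT 4. Cenpf, a corona protein of the outer kinetochore, had no detected signal on its probe, so no level is given.

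Nuf2 had 3 probes that did not read alike, and the sequences of 2 are shown because they were detected on different arrays. In the files' order of letters, 60 bases each, on the minus strand of mm9 at chr1:171428989-171429048 (A_55_P2076048) and chr1:171440451-171440510 (A_55_P2113964), they are:
A_55_P2076048: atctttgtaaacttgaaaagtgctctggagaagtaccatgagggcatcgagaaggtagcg
A_55_P2113964: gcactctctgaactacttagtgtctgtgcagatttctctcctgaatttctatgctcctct
The exon or untranslated region under each was not analysed here, and the files assign the second to an Ensembl transcript and the first to the RefSeq one. A_55_P2076048, which represents the gene, read 1.16, 0.24 and 0.12 on Lck-/- arrays and 2.21, 1.08, 1.54 and 0.97 on WT arrays. A_55_P2113964 read -6.05, -0.95 and -2.30 on Lck-/- arrays and -6.29, -6.45, -7.30 and -0.47 on WT arrays. It was well above background only on the arrays labelled Lck-/- 2, Lck-/- 3 and WT 4, which are also the 3 arrays with the lowest Lck signal. Its values on the other 4 arrays are only bounds, and no difference is given. The third probe, A_55_P2174704 at chr1:171428269-171428328, was well above background on WT 4 alone, at -2.74, with -4.39 on Lck-/- 2 next. 

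**Figure D3:**
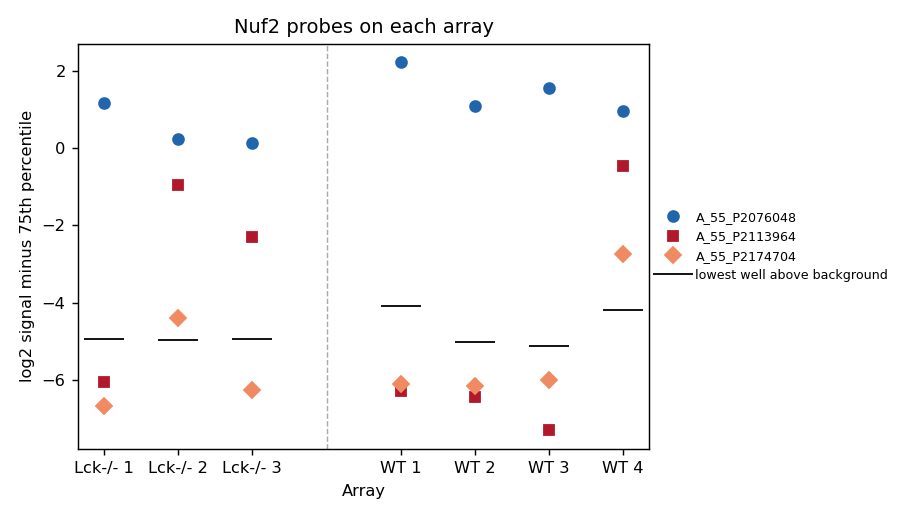
Log2 signal minus the 75th percentile (up the page) of the 3 Nuf2 probes on each array, with Lck-/- arrays left of WT arrays; black dashes mark, per array, the dimmest probe still well above background. A_55_P2076048 is high on all 7 arrays, while A_55_P2113964 clears the dashes only on the arrays labelled Lck-/- 2, Lck-/- 3 and WT 4.

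Spindle checkpoint genes had a median difference of -0.61, all 5 negative, and 1 of the 5 was lower at an unadjusted limma p under 0.05. Bub3, a WD-repeat protein that brings Bub1 and BubR1 to kinetochores, read 4.72, 4.90 and 4.79 on Lck-/- arrays and 5.26, 4.94, 4.85 and 4.94 on WT arrays, a difference of -0.19 (SE 0.15, limma adjusted p = 0.853). Its values on all arrays but WT 1 lay close together. Mad2l1, the Mad2 protein that binds the activator Cdc20, read 3.90, 3.58 and 3.50 on the arrays labelled Lck-/-, against 4.65, 3.92, 4.29 and 3.88 on those labelled WT, a difference of -0.52 (SE 0.22, limma adjusted p = 0.697). Lck-/- 1 overlapped WT 4 by a small margin. Mad2l1 was the checkpoint gene at an unadjusted limma p under 0.05. Its other probes, also well above background on all 7 arrays, differed by -0.47 and -0.33. Their unadjusted limma p, from a fit over all probes, was 0.13 and 0.25. Bub1b, the BubR1 protein of the mitotic checkpoint complex, read 1.81, 1.47 and 1.12 on Lck-/- arrays and 2.93, 1.47, 2.51 and 1.74 on WT arrays, a difference of -0.69 (SE 0.36, limma adjusted p = 0.757). For Bub1b, Lck-/- 1 was above WT 2 and WT 4, and Lck-/- 2 was level with WT 2.

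Bub1, the kinase that marks centromeric histones for the passenger complex, was spotted 10 times on each array (9 usable on Lck-/- 3), which gives the error of a spot. The SD between its spots on an array was 0.03 to 0.08, while its values were 1.65, 0.86 and 0.51 on the arrays labelled Lck-/-, against 2.52, 1.31, 2.28 and 1.34 on those labelled WT, a difference of -0.86 (SE 0.39, limma adjusted p = 0.712). Within a group, all gaps between arrays but that of WT 2 and WT 4 were larger than this spot error. Ttk, the Mps1 kinase that starts checkpoint signalling, differed by -0.61 (SE 0.37). Like Bub1b, Ttk was highest on WT 1 and next highest on WT 3.

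Genes of cytokinesis and the chromosomal passenger complex were lower in 7 of 7 cases, with a median of -0.74, and 4 of the 7 were lower at an unadjusted limma p under 0.05. Birc5, the survivin subunit of the passenger complex, read 5.70, 4.65 and 4.85 on the arrays labelled Lck-/-, against 6.68, 5.54, 6.22 and 5.40 on those labelled WT, a difference of -0.89 (SE 0.37, limma adjusted p = 0.697). Incenp, the scaffold of that complex, read 5.67, 4.72 and 4.92 on Lck-/- arrays and 6.37, 5.08, 6.11 and 5.39 on WT arrays, a difference of -0.64 (SE 0.36, limma adjusted p = 0.781). For both, the array labelled Lck-/- 1 stood above WT 2 and WT 4. Racgap1, the GTPase-activating subunit of centralspindlin, read 3.08, 2.58 and 2.92 on Lck-/- arrays and 4.00, 3.20, 3.76 and 3.06 on WT arrays, a difference of -0.65 (SE 0.26, limma adjusted p = 0.692). Ect2, the exchange factor that turns RhoA on at the cleavage furrow, read 1.50, 1.22 and 0.73 on the arrays labelled Lck-/-, against 2.79, 1.86, 2.24 and 1.59 on those labelled WT, a difference of -0.97 (SE 0.31, limma adjusted p = 0.617). Ect2 groups did not overlap, with Lck-/- 1 just under WT 4. Its dimmer second probe differed by -0.37, but was well above background on only 1 Lck-/- and 3 WT arrays, which limits that value.

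Prc1, which bundles the midzone microtubules, differed by -1.24 (SE 0.45), the widest of the 7. Anln, the actin and septin scaffold anillin, differed by -0.74 (SE 0.39), and Cep55, which recruits the abscission machinery, by -0.49 (SE 0.29). Cep55 was lowest on Lck-/- 3, and its WT 4 value of -1.31 was next to the -1.30 of Lck-/- 2.

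**Figure D4:**
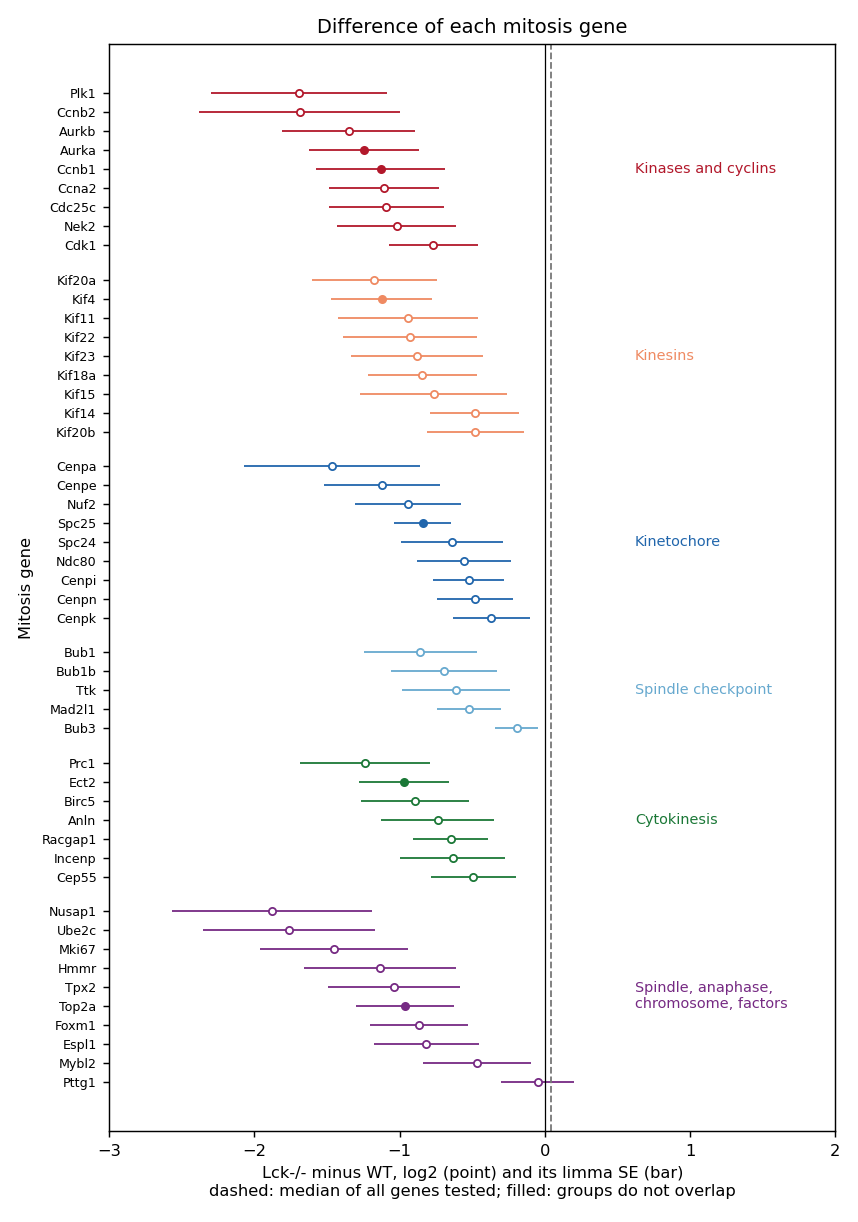
Difference, Lck-/- minus WT, of each tested mitosis gene on the log2 scale (points, by role down the page) with its limma standard error (bars); filled points mark genes whose groups do not overlap and the dashed line the median of all genes tested. Every point lies left of 0, from -1.88 for Nusap1 to -0.05 for Pttg1.

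The 10 genes of spindle assembly, anaphase, chromosome structure and transcription had a median difference of -1.001, all negative, and 5 of the 10 were lower at an unadjusted limma p under 0.05. Mki67, which coats mitotic chromosomes and is used as a marker of proliferation, read 4.68, 3.35 and 3.28 on the arrays labelled Lck-/-, against 6.19, 4.54, 5.65 and 4.50 on those labelled WT, and its other probe differed by -1.28 against -1.45 (SE 0.51, limma adjusted p = 0.652) for the first. Here too Lck-/- 1 was above WT 2 and WT 4. Top2a, the topoisomerase that untangles sister chromatids, read 3.37, 2.82 and 2.90 on Lck-/- arrays and 4.63, 3.51, 4.44 and 3.40 on WT arrays, a difference of -0.96 (SE 0.34, limma adjusted p = 0.652). Top2a groups did not overlap, by the narrow margin between Lck-/- 1 and WT 4. Nusap1, which bundles spindle microtubules near chromosomes, read 1.40, -0.39 and -0.27 on the arrays labelled Lck-/-, against 3.49, 1.35, 2.71 and 0.95 on those labelled WT, a difference of -1.88 (SE 0.69, limma adjusted p = 0.659). Lck-/- 2 and Lck-/- 3 alone were below the 75th percentile for Nusap1.

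Genes of anaphase differed among themselves. Ube2c, the ubiquitin-conjugating enzyme of the anaphase-promoting complex, differed by -1.76 (SE 0.59) and by -1.91 on its other probe, and Espl1, the separase that cuts cohesin, by -0.82 (SE 0.36). Pttg1, the securin, read 3.17, 3.96 and 3.97 on Lck-/- arrays and 3.94, 3.34, 3.92 and 3.80 on WT arrays, a difference of -0.05 (SE 0.25, limma adjusted p = 0.991). Its order was unlike that of the other members, with the highest value on Lck-/- 3 and the lowest on Lck-/- 1. The sign of the Pttg1 difference turned under 5 alternatives, to 0.089 with array weights, 0.0064 and 0.013 when WT 3 or WT 1 was left out, 0.21 when Lck-/- 1 was, and 0.23 when both arrays whose Lck signal went against the label were. Tpx2, which activates Aurka on the spindle, differed by -1.04 (SE 0.45), and Hmmr, a spindle pole protein, by -1.13 (SE 0.52).

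Foxm1 and Mybl2 encode transcription factors that activate genes of G2 and mitosis together with the MuvB complex. Foxm1 read 1.25, 0.35 and 0.55 on the arrays labelled Lck-/-, against 2.30, 1.25, 1.73 and 1.06 on those labelled WT, a difference of -0.87 (SE 0.34, limma adjusted p = 0.681). Mybl2, the B-Myb factor, read 5.68, 4.50 and 4.25 on Lck-/- arrays and 5.73, 4.95, 5.54 and 4.89 on WT arrays, a difference of -0.47 (SE 0.37, limma adjusted p = 0.857). For Mybl2 the array labelled Lck-/- 1 was second only to WT 1, while for Foxm1 it was level with WT 2. Of the 11 other MuvB and DREAM genes tested, 8 differed downward and 3 upward, and their median was -0.10. At an unadjusted limma p under 0.05, 2 were lower, Tfdp2 (-0.51) and Lin9 (-0.42), against 2.19% of all genes tested. Rbbp4, a histone-binding subunit, differed by -0.23 (SE 0.16), and Tfdp1, an E2F partner, by -0.09 (SE 0.19).

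Promoters of the members are shown because the members varied together across arrays. The MuvB complex binds the cell cycle homology region, searched here as TTTGAA or TTCGAA on either strand, and NF-Y binds CCAAT, searched likewise, with overlapping matches counted; TTCGAA reads the same on both strands, and the motifs were chosen for their known role. RefSeq promoter sequence of 250 bases before to 50 after the start (GRCm38.p6, a later build than that of the probes) was at hand for 42 of the 50 members, in 48 entries. Of the 48 entries, 34 (70.8%) held TTTGAA or TTCGAA, against 19.2% of all promoters, 14.4% of those of genes tested and 18.8% of those of DNA replication genes. CCAAT was in 72.9%, against 37.4% of all promoters and 62.5% of those of replication genes. Both kinds were in 58.3% of member entries and in 7.52% of all promoters. Within 50 bases of the start, a window chosen after the positions were seen, TTTGAA or TTCGAA lay in 64.6% of member entries, against 5.31% of all promoters.

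The windows printed run from 100 bases before to 50 after the start, 5′ to 3′ on the gene's strand, with the motifs of either strand in capitals. From each role group they give the member with the widest difference among those holding TTTGAA or TTCGAA (Plk1, chr7:122159335-122159484, plus strand; Kif4, chrX:100625965-100626114, plus; Cenpa, chr5:30666786-30666935, plus; Bub1, chr2:127831810-127831959, minus; Prc1, chr7:80294351-80294500, plus, the first of its entries; Ube2c, chr2:164769829-164769978, plus). Then come the members with the widest and the narrowest difference of all, neither of which holds a match (Nusap1, chr2:119618198-119618347, plus; Pttg1, chr11:43425932-43426081, minus).
Plk1: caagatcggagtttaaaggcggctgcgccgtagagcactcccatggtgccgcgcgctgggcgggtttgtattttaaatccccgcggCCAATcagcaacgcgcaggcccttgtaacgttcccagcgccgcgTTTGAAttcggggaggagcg
Kif4: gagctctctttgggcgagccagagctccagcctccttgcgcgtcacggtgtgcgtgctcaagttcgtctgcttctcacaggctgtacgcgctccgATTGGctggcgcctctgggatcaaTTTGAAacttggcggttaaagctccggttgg
Cenpa: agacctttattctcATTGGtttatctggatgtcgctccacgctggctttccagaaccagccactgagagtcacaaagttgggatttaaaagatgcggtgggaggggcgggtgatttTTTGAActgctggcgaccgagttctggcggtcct
Bub1: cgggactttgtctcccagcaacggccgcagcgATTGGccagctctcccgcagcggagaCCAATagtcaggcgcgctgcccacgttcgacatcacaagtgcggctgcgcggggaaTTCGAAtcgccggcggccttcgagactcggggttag
Prc1: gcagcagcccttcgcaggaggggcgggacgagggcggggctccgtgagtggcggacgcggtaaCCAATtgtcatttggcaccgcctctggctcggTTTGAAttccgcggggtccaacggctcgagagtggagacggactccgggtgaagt
Ube2c: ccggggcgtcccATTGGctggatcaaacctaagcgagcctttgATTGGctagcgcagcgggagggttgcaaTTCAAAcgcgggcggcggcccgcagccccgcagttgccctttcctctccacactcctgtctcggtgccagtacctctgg
Nusap1: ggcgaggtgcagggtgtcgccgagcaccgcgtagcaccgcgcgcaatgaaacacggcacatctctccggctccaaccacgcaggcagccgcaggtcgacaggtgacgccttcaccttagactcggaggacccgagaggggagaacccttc
Pttg1: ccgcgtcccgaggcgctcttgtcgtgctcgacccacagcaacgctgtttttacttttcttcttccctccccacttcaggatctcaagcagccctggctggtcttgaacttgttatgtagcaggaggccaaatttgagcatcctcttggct
The capitals near the end of the Plk1, Kif4, Cenpa and Bub1 windows are matches to TTTGAA or TTCGAA just past the start. In Ube2c the match lies before the start and reads TTCAAA, the other strand of TTTGAA. The 29 tested members with TTTGAA or TTCGAA had a median difference of -0.86 (-1.76 to -0.19), and the 12 without had a median of -0.87 (-1.88 to -0.05). These medians are close; a match is a description of letters only.

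Other lists of mitosis, cell cycle and motor genes had median differences between -1.05 and 0.06. For comparison, 42.5% of all genes tested had a negative difference. At an unadjusted limma p under 0.05, 2.19% of all genes were lower and 4.92% higher. Among other mitotic kinesins, 3 of 4 differences were negative and their median was -1.05, and all 3 were lower at an unadjusted limma p under 0.05. Of these, Kif18b read -0.85 ± 0.57 on Lck-/- and 0.24 ± 0.51 on WT arrays (SD, n = 3 and 4), Kifc1, a minus-end motor, read 1.70 ± 0.37 on Lck-/- and 2.74 ± 0.61 on WT arrays, and the centromere depolymerase Kif2c differed by -1.06. Kif3b, which also serves transport, differed by 0.33. Of 17 kinesins and light chains of interphase transport, 8 differed downward and 9 upward, their median was 0.06, none was lower at an unadjusted limma p under 0.05 and 1 was higher (Kif3a, 0.63). Kif21b differed by 0.17 (SE 0.15) and the light chain Klc2 by 0.26 (SE 0.20).

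Regulators and partners of Cdk1 had a median difference of -0.66, with 13 of 15 negative, and 4 were lower at an unadjusted limma p under 0.05, the kinase Melk (-1.07), the cyclin Ccnf (-0.98), Gtse1 (-0.95) and Cks2 (-0.66). Pkmyt1, which restrains Cdk1, differed by 0.22 (SE 0.38), and Cks1b, a small partner of Cdk1, by -0.35 (SE 0.34). The further 24 kinetochore genes had a median of -0.29, with 22 negative, and 2 were lower at an unadjusted limma p under 0.05, Knl1 (-1.05) and Cenpl (-0.99). Zwint differed by 0.04 (SE 0.18) and Cenpw by -0.44 (SE 0.28). Condensin, which compacts mitotic chromosomes, had 8 of 8 negative, a median of -0.51 and 1 at an unadjusted limma p under 0.05, Ncapg2 (-0.61). Its subunit Smc4 differed by -0.16 (SE 0.24) and Ncapd2 by -0.64 (SE 0.28).

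Cohesin, the ring that joins sister chromatids, had a median of -0.23, 12 of 13 negative, and 2 lower at an unadjusted limma p under 0.05, its establishment and maintenance factors Esco2 (-0.87) and Cdca5 (-0.65). The ring subunits Smc1a and Rad21 differed by 0.04 (SE 0.20) and -0.43 (SE 0.21). Centrosome genes had a median of -0.28, 13 of 14 negative, and 1 at an unadjusted limma p under 0.05, Stil (-0.58), which starts centriole duplication. Tacc3 and the gamma-tubulin Tubg1 differed by -0.67 (SE 0.36) and -0.28 (SE 0.21). Of 15 genes of the anaphase-promoting complex, 11 were negative, with a median of -0.13. At an unadjusted limma p under 0.05, 1 was lower, the activator Cdc20 (-0.99). Groups did not overlap for Cdc20 and for Anapc1 (-0.29), both lower on the arrays labelled Lck-/-. Anapc2 differed by 0.92 (SE 0.50) in the other direction, without a value on WT 3. Anapc5 differed by 0.11 (SE 0.27) and Ube2s by -0.28 (SE 0.31).

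DNA replication genes, which act earlier in the cell cycle than mitosis, had a median difference of -0.15. Of the 36 tested, 29 were negative, against 42.5% of all genes tested. At an unadjusted limma p under 0.05, 1 of the 36 (2.78%) was lower, against 2.19% of all genes. This was the ribonucleotide reductase subunit Rrm2 (-0.68). At such a p 1 was higher, Gins3 (0.31), against 4.92% of all genes. Of the helicase subunits, Mcm6 differed by -0.03 (SE 0.17) and Mcm3 by 0.07 (SE 0.23). Their level averaged 0.10, -0.27 and -0.32 on the arrays labelled Lck-/-, against 0.17, -0.04, -0.07 and -0.06 on those labelled WT. The arrays labelled Lck-/- 2 and Lck-/- 3 were lowest for replication as for mitosis genes, but WT 3, high for mitosis genes, was not high for replication genes. Groups did not overlap, lower on the arrays labelled Lck-/-, for 4 of 15 regulators and partners of Cdk1 and 2 of 36 replication genes. They did so too for 1 gene each of the other mitotic kinesins, further kinetochore genes and centrosome genes. The share of all genes was 2.14%. In the other direction they did not overlap for 2 of 17 transport kinesins and 1 replication gene, against 5.07% of all genes. None of the lists had a gene past an adjusted p of 0.05, and no difference between lists was tested.

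**Figure D5:**
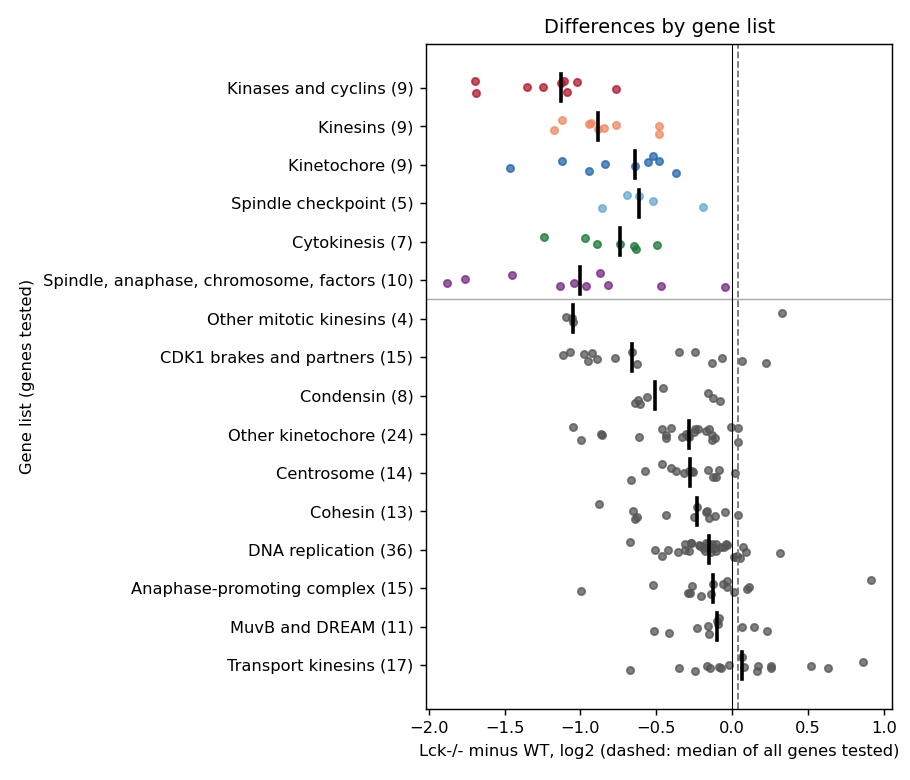
Difference, Lck-/- minus WT, on the log2 scale of every tested gene (points) of the 6 role groups (top, coloured) and 10 other lists (grey), with the list median as a bar, the number of genes tested in brackets and the median of all genes tested as a dashed line. Medians run from -1.13 for kinases and cyclins to 0.06 for transport kinesins.

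The count of 25 members lower at an unadjusted limma p under 0.05 depended on which arrays were kept. Leaving out the array labelled Lck-/- 1, Lck-/- 2 or Lck-/- 3 gave 40, 4 or 3 genes. Leaving out WT 1, WT 2, WT 3 or WT 4 gave 10, 39, 7 or 32, and leaving out both Lck-/- 1 and WT 4 gave 43. All genes at such a p, in either direction, changed in number as well, from 1051 with all 7 arrays. In the same order they numbered 1209, 929 and 650, then 749, 962, 976 and 1382, and 1610 without both. Without Lck-/- 1 and WT 4, whose Lck signal went against the label, 48 of 49 members had a negative difference. Of the 49, 38 were lower by 1 or more, against 2.76% of all genes. Groups did not overlap, lower on the arrays labelled Lck-/-, for 44 of the 48 with all values, against 10.1% of all genes. That last count was largely set by which arrays were removed. With all 7 arrays, Lck-/- 1 was above WT 2 for 33 and above WT 4 for 37 of 48 members. Lck-/- 2 and Lck-/- 3 were already below WT 2 for 45 and 46 of the 48. With the median of each array in place of its 75th percentile the count at an unadjusted p under 0.05 was 43, a scaling that shifted the median of all genes by -0.20, to -0.16, and that of the members to -1.09. Without WT 1 the median difference was -0.87 for kinases and cyclins, -0.56 for kinesins, -0.43 for kinetochore, -0.37 for spindle checkpoint and -0.48 for cytokinesis genes and -0.77 for the remaining members, and without Lck-/- 1 it was -1.45, -1.16, -0.94, -0.86, -1.001 and -1.26 in the same order. Without both Lck-/- 1 and WT 4 these medians were -1.63, -1.37, -1.02, -1.004, -1.14 and -1.48. The median difference of the members was negative in all 20 settings, between -1.33 and -0.63, and 0 members passed an adjusted p of 0.05 in any of them.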

How the data were processed

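Total RNA of 7 samples was labelled with Cy3 and hybridised to 1-colour Agilent arrays on 1 slide. The deposited scanner files give spot intensity, made per the file headers by Agilent Feature Extraction 10.7.3.1, with detrending on and dim spots given surrogates, and not scaled between arrays. A table of log2 values deposited by the authors, normalized between arrays in a way not given in the sources used here, served as an alternative; each column followed the log2 spot median of its array (r 0.9994 to 0.9998).

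From the intensities, each array's 75th percentile over non-control spots was subtracted from the log2 processed signal, spots marked as outliers were dropped and spots of a probe averaged. A probe was kept when well above background on at least 3 of 7 arrays, and a gene was read from its kept probe of highest mean. Groups were compared with limma 3.58.1 in R 4.3.3 (lmFit, eBayes, two-sided, Benjamini-Hochberg over 14784 genes, threshold 0.05); the number of arrays limits the precision. The procedure was tested on simulated data in which genes were drawn independently of one another, unlike the members here, which varied together. Gene names followed RefSeq (GRCm38.p6) and probe positions are the files' (mm9).

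Members, role groups, other lists and tests were chosen with earlier results of these data known. Values are given in full for the 3 members of each role group with the highest mean signal, for Mki67, Foxm1 and Mybl2, and from each other list for the 2 with the highest mean signal; other genes named, among them those whose groups do not overlap, were chosen after their values were seen. The alternatives were 4 other scalings (quantile, normexp with offset 50, median centring, the deposited table), 2 other filters on dim probes, averaging a gene's probes, a block for either number, weights per array, eBayes with trend and robust, and the removal of each array or of both whose Lck signal goes against the label.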

Additional observations from a re-analysis of the deposited data

Results flagged for a closer look

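Of 97 sets of 4 WT values checked with Dixon's test, in which chance marks about 1 in 20, 3 held an array far from the other 3. The Nuf2 probe A_55_P2113964 read -0.47 on the array labelled WT 4, against -6.29 to -7.30 on the other WT arrays, and the Nuf2 probe A_55_P2174704 read -2.74 there, against -6.01 to -6.16. On the arrays labelled Lck-/-, A_55_P2113964 read -6.05, -0.95 and -2.30. The averaged level of the DNA replication genes was 0.17 on the array labelled WT 1, against -0.07 to -0.04 on the other WT arrays.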

How the results depend on the processing

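Every one of the 49 members kept its direction in all settings run, except Pttg1 and Nuf2. Pttg1 turned to 0.089 with array weights and 0.23 without both arrays whose Lck signal goes against the label, ran from -0.19 to 0.21 with each array left out, and Nuf2 turned to 0.54 as the mean of its probes, 1 of which was not well above background on 4 arrays. Members past an adjusted p of 0.05 numbered 0 in all 20 settings. Genes past it numbered 1 under the replicate block by title number, by file-name number and with array weights, 57 without both doubted arrays, and 0 to 1 with each array left out. Members lower at an unadjusted p under 0.05, 25 as reported, numbered 43 with median centring, 43 and 44 under the replicate block by title and by file-name number, 43 without both doubted arrays, and 3 to 40 with each array left out. All genes at an unadjusted p under 0.05 in either direction, 1051 as reported, numbered 1610 without both doubted arrays and 650 to 1382 with each array left out. They numbered 943 with median centring, and 1559 and 1125 under the replicate block by title and by file-name number. The cause of these changes was not tested. Same-numbered arrays did not all deviate together, with correlations of 0.11, 0.06 and -0.03 by title number and 0.11, -0.43 and 0.16 by file-name number. Under neither numbering did every array labelled Lck-/- correlate best with the WT array of its own number. Whether same-numbered samples were handled as pairs was not tested. Signal over background limits Aurkb, Cenpf and the dim probes of Cdk1, Ect2, Kif14, Kif23 and Nuf2.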
